A study of Homo sapiens with 9 samples.

Results

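The 9 genes described here, F3, TFPI, TFPI2, F2R, THBD, PROCR, PLAT, PLAU and PLAUR, take part in the control of clotting and of clot breakdown (fibrinolysis) by endothelial cells. They were chosen by symbol for their known roles, but with earlier results of these data known, so the choice was not blind to the data. They are 9 of the 29740 gene symbols in the counts, and all 9 were among the 14740 genes with enough counts to be tested.

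Endothelial cells line blood vessels and keep blood fluid. Clotting starts when blood meets tissue factor, encoded by F3, which binds factor VIIa, and the complex is inhibited by tissue factor pathway inhibitor, encoded by TFPI. Thrombin made in the cascade acts on cells through protease-activated receptor 1, encoded by F2R, but thrombin held by thrombomodulin, encoded by THBD, activates protein C, an anticoagulant, on the endothelial protein C receptor, encoded by PROCR. Fibrin is dissolved by plasmin, which is cut from plasminogen by tissue-type plasminogen activator, encoded by PLAT, or by urokinase, encoded by PLAU and held at the cell surface by its receptor, encoded by PLAUR. TFPI2 encodes a related inhibitor found in the extracellular matrix, which inhibits plasmin and other serine proteases.

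The genes were measured by RNA-seq of total RNA from HMEC-1, an immortalised line of human dermal microvascular endothelial cells. The cells were left untreated (CTRL) or were given 50 µM trimethylamine N-oxide (TMAO), an oxidised amine derived from gut microbial metabolism, for 24H or 48H in medium with reduced serum, with 3 libraries in each of the 3 groups. Controls of both time-points were pooled by the study and their labels carry no time, so a difference from control and a difference in time in culture cannot be told apart, and both treated groups were compared with the same controls. All cells came from 1 established line, and the labels do not state that the 3 libraries of a group were separate cultures. The study's methods speak of independent experiments for its data in general without naming the sequencing, so p-values measure only the spread between these libraries, which may be technical.

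The libraries held 25205756 to 36927373 estimated counts. Ribosomal RNA genes took 31.5% of the counts of TMAO 24H replicate 1 and 1.64 to 7.46% of the counts of the other 8 libraries. All 13 listed endothelial markers, among them PECAM1, CDH5 and KDR, passed the filter on low counts, with summed levels of 3051 to 3386 CPM (counts of a library scaled to 1000000) in control, 3037 to 3226 at 24H and 2690 to 2925 at 48H. The 4 epithelial markers EPCAM, KRT5, KRT14 and CDH1 summed to 55.6 to 100.2 CPM in 8 libraries but to 8.74 CPM in TMAO 48H replicate 3, which stood apart in this respect. Leukocyte markers (PTPRC, CD14, LYZ, CD163) summed to at most 1.51 CPM and platelet markers (PF4, PPBP, ITGA2B, GP9) to at most 1.51 CPM in any library, with CD163 and PF4 at 0 in all 9.

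After 24H of TMAO none of the 9 genes passed the test, and after 48H 4 of them had fallen: PLAT, TFPI2, THBD and PLAUR. None rose at either time-point. PLAT fell most, to 0.67 of its control level, TFPI2 fell to 0.76, and THBD and PLAUR to 0.84 and 0.85. The remaining 5, F3, TFPI, F2R, PROCR and PLAU, did not pass the test in this fit, though TFPI, F2R and PLAU did in some of the alternatives given with each gene. Levels are given as CPM on library sizes scaled by the trimmed mean of M-values (TMM), changes are log2 fold changes from the edgeR quasi-likelihood fit, and a gene passed the test when its p-value, adjusted over the 14740 genes, was under 0.05.

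**Figure D1:**
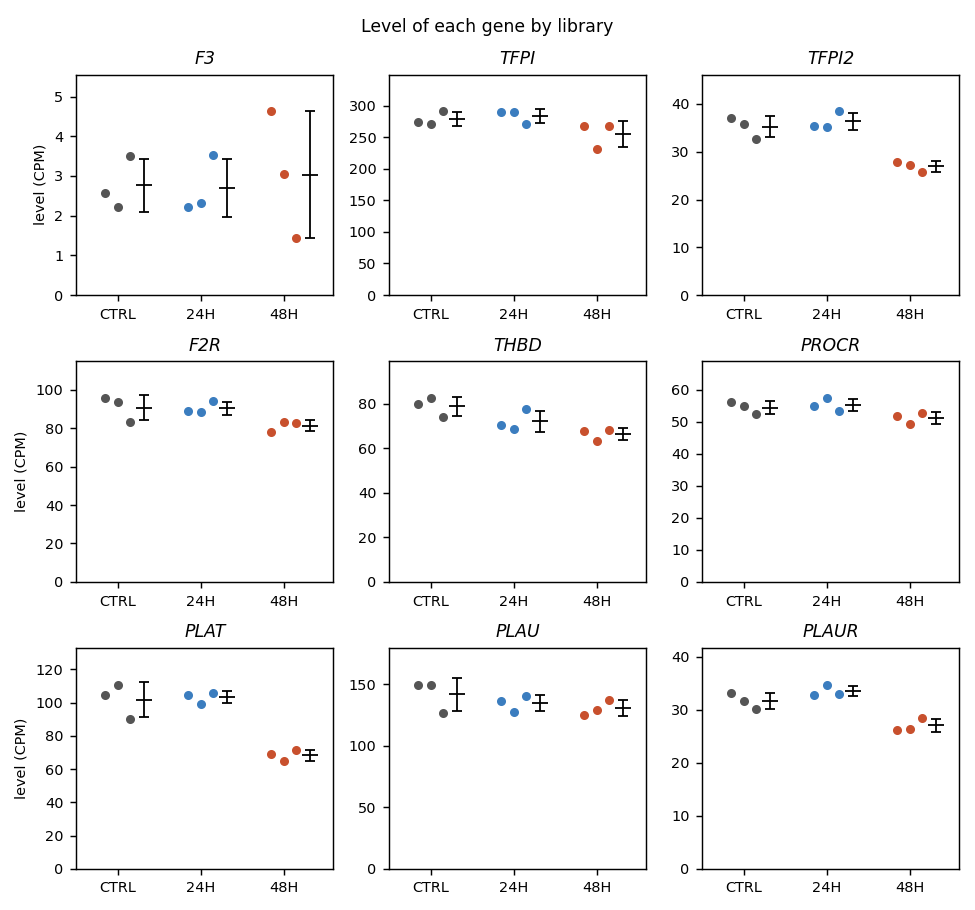
Level of each of the 9 genes in CPM (vertical axes, from 0) in the 3 control, 3 TMAO 24H and 3 TMAO 48H libraries. Points are libraries, and the bar beside them is the mean with its SD (n = 3). The 48H points of PLAT, TFPI2, THBD and PLAUR lie below all control points, while those of F3 spread from 1.44 to 4.63 CPM.

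At 24H, 0 of the 9 genes passed, by edgeR and also by DESeq2, against 0.095% of all genes tested, and THBD alone had an unadjusted p-value under 0.05. The median log2 fold change of the 9 was 0.021, beside -0.00042 over all genes tested. No gene of the 9 had 24H libraries wholly above or below the controls, beside 14.2% of all genes in either direction. With only 9 genes, 0 is near that share. Excluding F3, the 95% intervals of the 24H changes lay between -0.25 and 0.20 on the log2 scale, which bounds the size of any change in these 8 genes. At 48H, 4 of 9 passed, all lower, beside 5.29% of all genes that passed as lower and 5.14% that passed as higher. By its estimate PLAT alone was also at least 1.4-fold lower (0.916% of all genes), but it did not pass a test against a 1.4-fold change. The 48H libraries lay wholly below the controls for 5 of the 9 genes, the 4 that passed and TFPI, compared with 13% of all genes. The median change of the 9 at 48H was -0.16, beside 0.0040 over all genes tested.

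**Figure D2:**
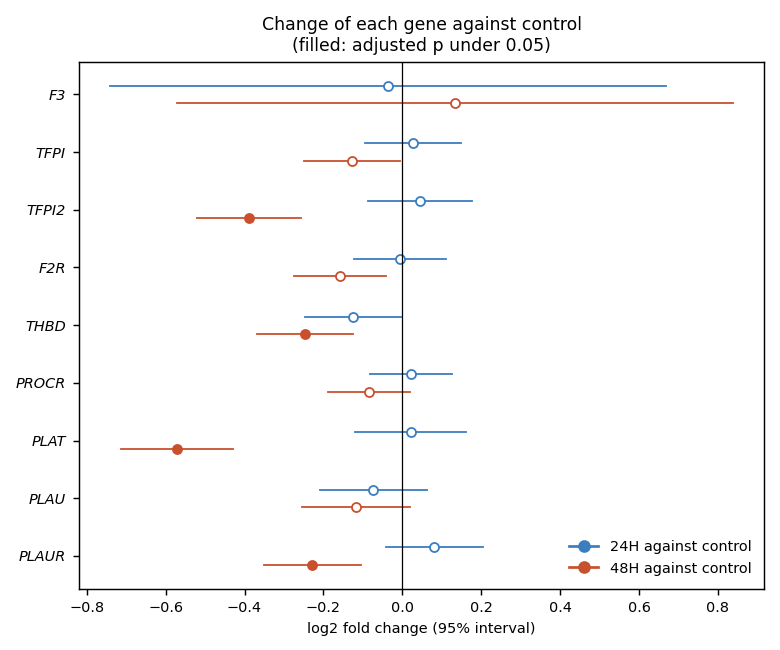
Log2 fold change against control (horizontal axis) of the 9 genes (vertical axis) at 24H and 48H, with 95% intervals. Filled points passed the test (PLAT, TFPI2, THBD and PLAUR at 48H), and all 24H points are open.

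As some of the 9 genes fell together, the 250 bases before each start were searched for the letters TGANTCA, where N is any base. These are a loose form of the AP-1 site that Fos and Jun proteins bind, which usually has G or C at N. As a pattern they read the same on both strands. The motifs were chosen with these results known. The windows come from RefSeq on GRCh38.p14, where 6 of the 9 genes had a window (F3, TFPI, TFPI2, PLAU, PLAUR and PROCR). The letters were present before F3, TFPI2 and PLAUR and absent from the windows of TFPI, PLAU and PROCR, and 6.57% of all 35116 windows held them. The matches are shown, since they fall in genes that fell and in 1 that did not pass, with the motif in capitals, 5′ to 3′ on the strand of the gene, which is the minus strand for all 3.
TFPI2, chr7:93890823-93890851: gtccccgtgcaTGAATCAgccacccctca
PLAUR, chr19:43670338-43670366: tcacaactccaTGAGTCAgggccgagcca
F3, chr1:94541965-94541993: ggtggcgcggtTGAATCActggggtgagt
F3, chr1:94541952-94541980: aatcactggggTGAGTCAtcccttgcagg
The stretches of F3 overlap each other. TFPI2 and PLAUR, which fell at 48H, carry a match, as does F3, whose groups overlapped. The match of TFPI2 and the first of F3 have A at N, unlike the usual site, while that of PLAUR and the other of F3 have G. PLAT and THBD, which also fell, had no window and were not searched, nor was F2R. The letters of a site bound by Krüppel-like factors are CCNCACCC, or GGGTGNGG on the other strand. Among the 6 genes with a window they were found before F3 alone, and 16.7% of all windows held them. A match is a description of the letters and no evidence of binding.

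Of F3, TFPI and the related inhibitor TFPI2, TFPI2 fell after 48H, while F3 and TFPI did not pass the test. F3 was the least abundant of the 9 genes, with 38 to 121 counts in a library. Its level was 2.56, 2.23 and 3.51 CPM in control, 2.21, 2.33 and 3.53 CPM at 24H, and 4.63, 3.04 and 1.44 CPM at 48H. The 48H libraries held both the highest and the lowest level of the 9, and the groups overlapped. The log2 fold change was -0.04 ± 0.33 (SE) at 24H (adjusted p = 0.991) and 0.13 ± 0.33 at 48H (adjusted p = 0.843). The 48H interval ran from a 0.67-fold to a 1.79-fold level, so these libraries do not exclude a change of F3 within those limits. With 1 library left out the 48H change ran from -0.29 (without TMAO 48H replicate 1) to 0.47 (without TMAO 48H replicate 3), and without TMAO 48H replicate 3 and TMAO 24H replicate 1 together F3 did not pass either.

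The library with the lowest F3 level was also the one with few epithelial transcripts. In TMAO 48H replicate 3, KRT5 and KRT14, keratins of basal epithelial cells, were at 4.12 and 2.23 CPM, compared with 25.1 to 53.6 and 18.2 to 35.1 CPM in the other 8 libraries. Over the 9 libraries the F3 level and the summed epithelial markers had a Pearson r of 0.794 and a Spearman rho of 0.55. Without the 2 libraries farthest from the median marker sum, TMAO 48H replicate 3 and CTRL replicate 3 (100.2 CPM), r was 0.777 (n = 7). TMAO 48H replicate 1, with a marker sum of 96.5 CPM and the highest F3 level, 4.63 CPM, stayed among these 7. The relation without that library was not computed, so the value of 0.777 may rest on it. These values describe libraries that also differ in treatment, and the relation was looked at after the values were seen. The part of epithelial transcripts in the F3 level was not tested. The 3 genes whose log2 levels followed F3 most closely over the 9 libraries, also looked up after the values were seen, were MTHFS (Pearson r = 0.972), the glypican GPC4 (0.953) and P-cadherin, CDH3 (0.952).

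**Figure D3:**
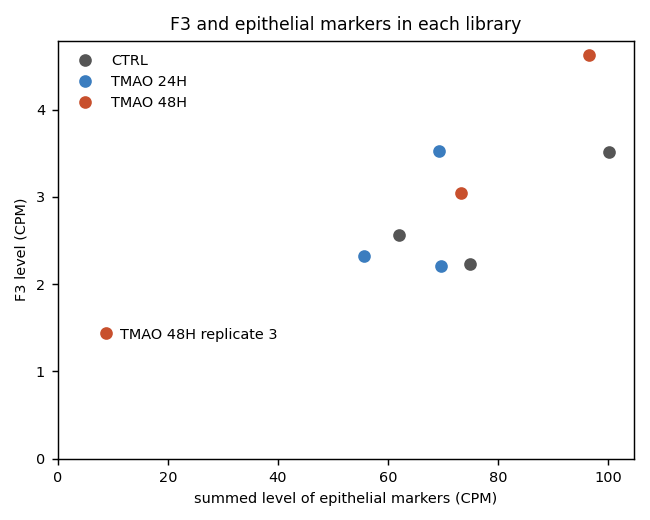
F3 level in CPM (vertical axis) against the summed level of 4 epithelial markers in CPM (horizontal axis), 1 point for each of the 9 libraries. TMAO 48H replicate 3 lies apart at the lower left, at 8.74 and 1.44 CPM.

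TFPI was at 274.6, 271.6 and 291.4 CPM in control, 290.9, 290.3 and 271.8 CPM at 24H, and 267.3, 231.9 and 267.8 CPM at 48H. The 3 libraries at 48H were the lowest of the 9, but the gap to the nearest control was small. The log2 fold change was 0.03 ± 0.06 (SE) at 24H (adjusted p = 0.968) and -0.13 ± 0.06 at 48H (adjusted p = 0.173). With a correction for GC content TFPI passed at 48H as lower, both against control (-0.197, adjusted p = 0.0449) and against 24H (-0.197, adjusted p = 0.045).

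TFPI2 was at 37.2, 35.8 and 32.8 CPM in control, at 35.5, 35.2 and 38.5 CPM at 24H, and at 27.9, 27.1 and 25.8 CPM at 48H. All 48H libraries lay below all others, and the 24H libraries overlapped the controls. TFPI2, whose match to TGANTCA is shown above, fell by 23.6% at 48H, with a log2 fold change of -0.39 ± 0.06 (SE, 95% interval -0.52 to -0.26, adjusted p = 0.00176). At 24H the change was 0.05 ± 0.06 (adjusted p = 0.942). The fall at 48H passed the test with each control or 48H library left out in turn. By GENCODE 29, TFPI2 overlaps GNGT1 on the other strand, and GNGT1 had 0 counts in every library.

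Of the genes that sense or redirect thrombin, THBD fell after 48H. Its level was 79.98, 82.5 and 73.9 CPM in control, 70.6, 68.5 and 77.5 CPM at 24H, and 67.9, 63.2 and 68.1 CPM at 48H. The 48H libraries were below all controls and all 24H libraries, and the 24H libraries overlapped the controls. The log2 fold change was -0.13 ± 0.06 (SE) at 24H (adjusted p = 0.681) and -0.25 ± 0.06 at 48H (95% interval -0.37 to -0.12, adjusted p = 0.0153). The call at 48H did not hold in every subset: the adjusted p was 0.0546 without CTRL replicate 1, 0.0758 without CTRL replicate 2 and 0.079 without TMAO 48H replicate 2, with log2 fold changes of -0.24, -0.21 and -0.21.

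F2R, the thrombin receptor, was at 95.6, 93.4 and 83.1 CPM in control, 88.7, 88.2 and 94.1 CPM at 24H, and 77.99, 83.2 and 82.7 CPM at 48H. The highest 48H library was just above the lowest control, so the groups overlapped. The log2 fold change was -0.16 ± 0.05 (SE) at 48H (adjusted p = 0.0803) and -0.0056 ± 0.054 at 24H (adjusted p = 0.991). F2R passed at 48H only when CTRL replicate 3 was left out (-0.22, adjusted p = 0.0116). PROCR was at 52.3 to 56.1 CPM in control, 53.5 to 57.4 CPM at 24H and 49.2 to 52.9 CPM at 48H. The control range overlapped both others, while the 48H libraries lay below all 24H libraries without passing that comparison (adjusted p = 0.215 by edgeR). Its log2 fold change was 0.02 ± 0.05 at 24H (adjusted p = 0.973) and -0.08 ± 0.05 at 48H (adjusted p = 0.291).

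Endothelial markers moved beside THBD. Of the 13 markers, VWF included, 8 fell at 48H (PECAM1, CDH5, TIE1, KDR, ERG, ROBO4, ENG and EGFL7), beside 5.29% of all genes that passed as lower. The log2 fold changes of the 13 had a median of -0.25 and a lowest value of -0.33, and none was 1.4-fold lower. The changes of THBD, -0.25, and PLAUR, -0.23, were of the size of this median, and those of TFPI2, -0.39, and PLAT, -0.57, were below the lowest marker. The part of a general change in endothelial transcripts in these falls was not tested, and fewer cells of a type and less RNA per cell cannot be told apart in bulk RNA.

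Of the fibrinolysis genes, PLAT fell most and PLAUR fell modestly after 48H, whereas PLAU did not pass. PLAT was at 104.4, 110.6 and 90.03 CPM in control, at 104.5, 99.1 and 105.9 CPM at 24H, and at 69.2, 64.8 and 71.2 CPM at 48H. The 48H libraries formed a tight group far below the lowest of the other 6. PLAT fell by 32.7% at 48H, with a log2 fold change of -0.57 ± 0.07 (SE, 95% interval -0.71 to -0.43, adjusted p = 2e-04). At 24H its change was 0.02 ± 0.07 (adjusted p = 0.978). The fall at 48H passed with each library left out in turn, with a largest adjusted p of 0.00235.

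PLAU was at 149.1, 149.3 and 126.5 CPM in control, 136.2, 127.2 and 140.5 CPM at 24H, and 125.2, 128.9 and 137.5 CPM at 48H. CTRL replicate 3 was within the range of the 48H libraries, and the groups overlapped. The log2 fold change was -0.07 ± 0.06 (SE) at 24H (adjusted p = 0.886) and -0.12 ± 0.06 at 48H (adjusted p = 0.263), and PLAU passed at 48H only without CTRL replicate 3 (-0.198, adjusted p = 0.0321). By the same annotation PLAU overlaps C10orf55 on the other strand, which had 25.9 to 45.9 estimated counts in a library beside 3272 to 4774 for PLAU. How the counting treated strand is not given in the sources used here, and reads of the pair cannot then be told apart.

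PLAUR, the urokinase receptor, was at 33.2, 31.7 and 30.1 CPM in control, 32.8, 34.7 and 33.02 CPM at 24H, and 26.3, 26.4 and 28.5 CPM at 48H. The 48H libraries were below all 6 others. Its log2 fold change was 0.08 ± 0.06 (SE) at 24H (adjusted p = 0.83) and -0.23 ± 0.06 at 48H (95% interval -0.35 to -0.10, adjusted p = 0.0229). The call at 48H was lost without CTRL replicate 1 (adjusted p = 0.09, by edgeR), CTRL replicate 2 (0.0731), TMAO 48H replicate 1 (0.0554) or TMAO 48H replicate 2 (0.0927), with log2 fold changes of -0.19, -0.23, -0.21 and -0.21. It was also lost with a correction for GC content (adjusted p = 0.0787) and with only the 2 groups compared (adjusted p = 0.05004).

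Compared with each other directly, the 48H libraries had less PLAT, TFPI2 and PLAUR than the 24H libraries, and none of the 9 passed as higher. PLAT was lower by a log2 fold change of -0.59 ± 0.07 (SE, adjusted p = 9.5e-05), TFPI2 of -0.43 ± 0.06 (adjusted p = 0.000615) and PLAUR of -0.31 ± 0.06 (adjusted p = 0.00458). These 3 of 9 stand beside 3.77% of all genes that passed as lower and 3.77% as higher. PLAT, the 1 gene at least 1.4-fold lower by its estimate, stands beside 0.848%. All 3 passed with each library of the 2 groups left out in turn. F2R passed as lower with only the 2 groups compared (-0.16, adjusted p = 0.0496). THBD did not pass between the time-points (-0.12 ± 0.06, adjusted p = 0.23), so its levels at 24H and 48H were not shown to differ. The median of the 9 was -0.15, beside 0.0040 over all genes tested.

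Across genes, levels can be compared only per length. With the longest coding transcript of each gene in GENCODE 29 as its length, control levels per kilobase were highest for TFPI, at 71.9 ± 2.7 CPM per kb (SD, n = 3), followed by PLAU at 53.3 ± 4.9, PROCR at 40.4 ± 1.4 and PLAT at 37.6 ± 3.9. PROCR and PLAT differed by less than the SD of PLAT. F2R, at 23.7 ± 1.7, PLAUR, at 19.7 ± 0.96, and THBD, at 19.2 ± 1.1, followed, and PLAUR and THBD differed by less than either SD. TFPI2 was at 14.4 ± 0.92 and F3 at 1.21 ± 0.29 CPM per kb. With the median transcript length in place of the longest, TFPI stayed first and F3 last, while PLAU and PROCR, F2R and PLAUR, and THBD and TFPI2 each changed places. At 48H, PLAT was at 25.3 ± 1.2 CPM per kb.

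Ratios of levels within a library, chosen after the values were seen and given without a test, set pairs of the 9 genes side by side. The ratio of PLAU to its receptor PLAUR was 4.47 ± 0.26 in control, 4.03 ± 0.31 at 24H and 4.83 ± 0.059 at 48H (mean ± SD of CPM over CPM, n = 3), and all 48H libraries were above all others. The ratio of TFPI to TFPI2 was 7.95 ± 0.82 in control, 7.84 ± 0.67 at 24H and 9.51 ± 0.93 at 48H, and the 48H libraries overlapped the controls. The ratio of THBD to F2R was 0.870 ± 0.029 in control, 0.799 ± 0.024 at 24H and 0.818 ± 0.055 at 48H. Its 24H libraries lay wholly below the controls, and its 48H libraries overlapped both other groups. Another pair looked at, F3 to TFPI, overlapped in every comparison, with ratios of 0.0099 ± 0.0020 in control, 0.0095 ± 0.0030 at 24H and 0.0119 ± 0.0061 at 48H.

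**Figure D4:**
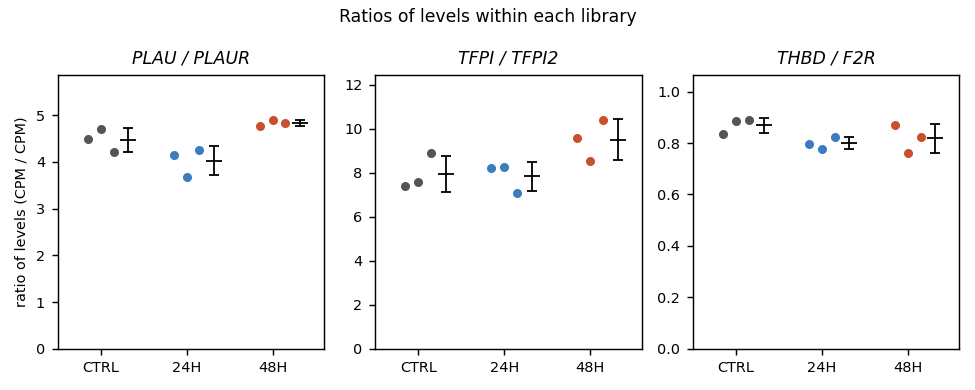
Ratio of the CPM levels of 2 genes within each library (vertical axes, from 0) for PLAU to PLAUR, TFPI to TFPI2 and THBD to F2R. Points are libraries, and the bar beside them is the mean with its SD (n = 3). The 48H points of PLAU to PLAUR, at 4.77 to 4.89, lie above all others, while those of TFPI to TFPI2 and THBD to F2R overlap the controls.

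The wider pathway was described by a list of 47 other genes of clotting, its inhibitors, its receptors and fibrinolysis, of which 24 had enough counts to be tested. The 23 others include the liver-made factors F2, F5, F7, F9 and F10, the fibrinogen chains FGA, FGB and FGG, plasminogen (PLG) and protein C (PROC), and the highest level of any of the 23 in a library was 0.497 CPM. At 24H, 0 of the 24 passed by edgeR and 1 by DESeq2 (VWF), with 4 at an unadjusted p-value under 0.05 (2 lower and 2 higher), beside 659 lower and 408 higher of the 14740 genes tested. At 48H 4 of 24 fell and none rose, beside 5.29% of all genes lower and 5.14% higher. By their estimates 2 of the 4 were at least 1.4-fold lower, beside 0.916%. The median change of the 24 at 48H was -0.084, beside 0.0040 over all genes tested.

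The largest fall on that list was of SERPINE2, protease nexin 1, a cell-surface inhibitor of thrombin, urokinase and plasmin. It was at 264.4, 265.0 and 233.6 CPM in control, 247.1, 238.5 and 255.1 CPM at 24H, and 146.7, 139.5 and 154.3 CPM at 48H, a log2 fold change at 48H of -0.79 ± 0.05 (SE, adjusted p = 4.36e-06). F2RL1, the protease-activated receptor 2, which is cut by trypsin-like proteases, was at 27.4, 25.99 and 23.4 CPM in control, 25.7, 24.7 and 25.6 CPM at 24H, and 13.9, 16.2 and 16.3 CPM at 48H, a log2 fold change of -0.73 ± 0.08 (adjusted p = 9.48e-05). In both genes the 48H libraries were far below the other 6. P4HB, a protein disulfide isomerase, and ANXA5, annexin A5, which covers procoagulant phospholipid, fell by less, by 0.17 and 0.15 on the log2 scale (adjusted p = 0.0378 and 0.0368). Both lost the call without CTRL replicate 1 (adjusted p = 0.127 and 0.123), CTRL replicate 2 (0.134 and 0.115), TMAO 48H replicate 2 (0.115 and 0.129) or TMAO 48H replicate 3 (0.0759 and 0.0817).

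By role, 1 of 3 protease receptors fell at 48H (F2RL1), as did 2 of 5 anticoagulants (SERPINE2 and ANXA5) and 1 of 7 genes of factor processing and secretion (P4HB). Of all genes tested, 5.29% passed as lower. None of the 6 fibrinolysis genes tested and none of the 3 clotting factors tested, VWF, F8 and F12, passed at 48H in this fit. Of the 6, LRP1 (-0.23, adjusted p = 0.0546) passed in 4 of 10 alternatives, among them DESeq2 (adjusted p = 0.00978). ANXA2 and S100A10, which together bind plasminogen at the cell surface, did not pass, with a log2 fold change of -0.15 for ANXA2 (adjusted p = 0.116) and -0.11 for S100A10 (0.112). PROS1, protein S, the cofactor of activated protein C, was at 31.7 ± 1.2 CPM in control and 34.7 ± 2.4 CPM at 48H (SD, n = 3, adjusted p = 0.198 by edgeR).

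**Figure D5:**
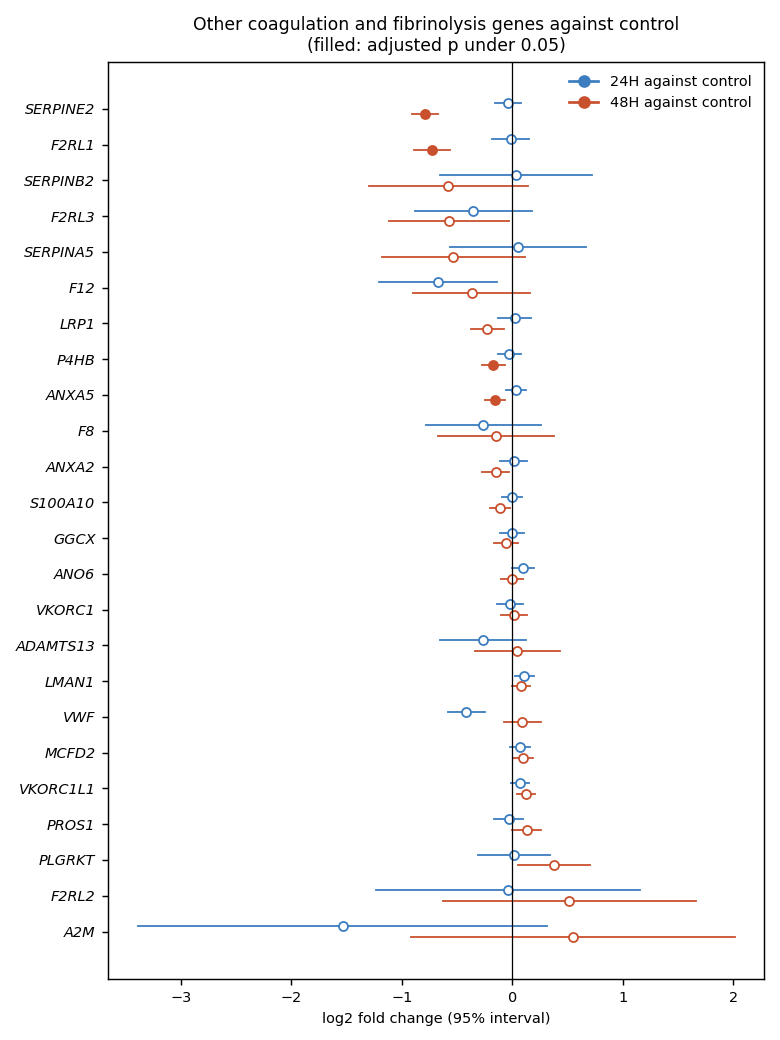
Log2 fold change against control (horizontal axis, 95% intervals) of the 24 other genes of clotting and fibrinolysis with enough counts to be tested (vertical axis, ordered by their 48H value) at 24H and 48H. Filled points passed the test, which were SERPINE2, F2RL1, P4HB and ANXA5 at 48H.

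VWF, von Willebrand factor, stored in endothelial cells and needed for platelet adhesion, had a different course. It was at 118.1, 114.4 and 100.7 CPM in control, 86.2, 77.0 and 86.5 CPM at 24H, and 105.8, 118.2 and 130.9 CPM at 48H. The 24H libraries were below the other 6, and the 48H libraries overlapped the controls. The log2 fold change was -0.42 ± 0.08 (SE) at 24H, which did not pass (adjusted p = 0.082), and 0.09 ± 0.08 at 48H (adjusted p = 0.5), and the 48H libraries were higher than the 24H libraries by 0.51 ± 0.08 (adjusted p = 0.00112). At 24H VWF passed in 3 of 10 alternatives. These were DESeq2, the tool used by the study (-0.41, adjusted p = 0.000102), and, in edgeR, only the 2 groups compared (0.0204) and at least 10 counts in every library (0.048). With 1 library left out it passed in 1 of 6 fits, without CTRL replicate 3 (adjusted p = 0.04997). It also passed without TMAO 24H replicate 1 and TMAO 48H replicate 3 together (-0.44, adjusted p = 0.039). Between the time-points 4 of the 24 genes were lower at 48H (SERPINE2, F2RL1, ANXA5 and LRP1, an endocytic receptor that clears many proteases) and only VWF was higher. Of all genes tested, 3.77% passed as lower and 3.77% as higher. LRP1, at -0.25 (adjusted p = 0.0455), lost the call with 5 of 6 libraries left out in turn: TMAO 24H replicates 1, 2 and 3 (adjusted p = 0.0634, 0.112 and 0.159) and TMAO 48H replicates 1 and 2 (0.0997 and 0.0768). ANXA5, at -0.19 (adjusted p = 0.0165), lost it without TMAO 24H replicate 1 (0.076), TMAO 24H replicate 3 (0.0714) or TMAO 48H replicate 2 (0.0783).

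KLF2 and KLF4, transcription factors that respond to blood flow and are known regulators of THBD, did not pass at either time-point in this fit. The log2 fold changes of KLF2 were -0.38 ± 0.07 (SE) after 24H (adjusted p = 0.0655) and -0.22 ± 0.07 after 48H (adjusted p = 0.0599). Those of KLF4 were -0.24 ± 0.10 (adjusted p = 0.65) and -0.08 ± 0.10 (adjusted p = 0.672). KLF2 was at 62.7, 66.7 and 62.3 CPM in control, 43.8, 48.9 and 54.6 CPM at 24H, and 54.4, 57.2 and 53.5 CPM at 48H, so both treated groups lay wholly below the controls. KLF2 passed in some alternatives. With DESeq2 its adjusted p was 0.000305 at 24H and 0.0299 at 48H, and in edgeR with at least 10 counts in every library it was 0.0475 and 0.0487. It also passed in edgeR at 24H without TMAO 24H replicate 3 (-0.46, adjusted p = 0.01995), and at 48H with only the 2 groups compared (adjusted p = 0.027) or with ribosomal RNA genes removed (adjusted p = 0.0485).

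Some markers of connective tissue cells also moved at 48H. The 8 fibroblast and mural markers summed to 963 to 1123 CPM in control, 972 to 1050 CPM at 24H and 622 to 680 CPM at 48H. Most of each sum was COL1A1 (mean 678 CPM in control, 425 at 48H) and COL1A2 (295 and 140). Among the 6 tested, these 2 passed at 48H as lower and ACTA2 as higher, beside 5.29% and 5.14% of all genes. COL3A1, PDGFRA and PDGFRB did not pass, and DCN and LUM were at 0 in every control library. The part of these markers in the falls of PLAT and TFPI2 was not tested.

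By the likeness of log2 levels over the 9 libraries, the genes closest to PLAT were VIM (vimentin, Pearson r = 0.994), ARHGAP22 (0.993) and PLXNA4 (0.992). Those closest to TFPI2 were the histamine receptor HRH1 (0.993), SH3BP5 (0.986) and CDK8 (0.981), and those closest to PLAUR were GGT5 (0.973), MPP1 (0.971) and VASH1 (0.971). Among the 9 genes themselves PLAT and TFPI2 were the most alike (0.96), followed by PLAT and PLAUR (0.922) and by TFPI2 and PLAUR (0.89). F3 and PLAU were the least alike (-0.432). These correlations include the difference between groups and are given as a description.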

How the data were processed

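Total RNA of HMEC-1 was sequenced by the authors as paired-end libraries, 3 in each of the CTRL, TMAO 24H and TMAO 48H groups. The authors processed the reads with nf-core RNAseq 3.6, and the processing notes name Trim Galore. The quantifier, genome build and annotation are not given in the sources used here. The deposited values are estimated counts per gene symbol (expected counts, not normalised), for 29740 symbols.

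The estimated counts were rounded. In R 4.3.3, edgeR 4.0.16 was run with filterByExpr, TMM factors and glmQLFit (legacy = FALSE) on the 9 libraries together, with Benjamini-Hochberg adjustment over 14740 genes. Standard errors were derived from the F statistic, and intervals are 95%. Called genes passed at an adjusted p under 0.05 and changed at least 1.4-fold. Permuting 3 libraries against 3 gives an exact p of at least 0.1, so whether groups overlap is stated for single genes instead. The fit was tested on simulated data, where false passes exceeded the limit first set and met a wider one set afterwards. DESeq2, which the study used, was run in version 1.42.0 as an alternative, as were other settings. Correlations used log2 CPM. Transcript lengths and GC content came from GENCODE 29.

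The 9 genes and all lists were chosen with earlier results of these data known. Named genes were the 9, VWF, KLF2 and KLF4, each listed pathway gene that passed in any comparison, and the 3 genes most like each of the 3 members with the smallest adjusted p. Of the pathway list, 1 gene is not reported here and is left out of its counts. Others named were chosen after their values were seen.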

Additional observations from a re-analysis of the deposited data

Results flagged for a closer look

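The change against control differed between 24H and 48H for 8 genes of clotting and fibrinolysis, by the direct test of the 48H against the 24H libraries (edgeR quasi-likelihood, adjusted over all genes tested). The log2 fold changes of 48H against 24H were -0.75 for SERPINE2, -0.71 for F2RL1, -0.59 for PLAT, -0.43 for TFPI2, -0.31 for PLAUR, -0.25 for LRP1, -0.19 for ANXA5 and 0.51 for VWF. VWF was the only one of the 8 that was higher at 48H, and of all genes tested 3.77% passed as lower and 3.77% as higher. LRP1 and ANXA5 depend on single libraries, as described above.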

How the results depend on the processing

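The falls of PLAT and TFPI2 at 48H, against control and against 24H, kept their direction and passed under 9 of 10 alternatives and with each library left out, and failed in the test against a 1.4-fold change. In that test the number of the 9 genes that passed was 0 at 48H against control and 0 against 24H, the number called was 0 in both, and 1 of the 24 other pathway genes passed in each (SERPINE2). With 1 library left out, the number of the 9 genes passing at 48H against control ran from 2 to 6 and that of the 24 from 2 to 7, while against 24H 3 of the 9 passed each time and 3 to 6 of the 24. At 24H the number of the 24 that passed was 1 with DESeq2, 1 with at least 10 counts in every library and 1 with only the 2 groups compared, and ran from 0 to 1 with 1 library left out. Without TMAO 24H replicate 1 and TMAO 48H replicate 3, chosen after seeing the data, 4 of the 9 passed at 48H and 0 at 24H, and 1 of the 24 passed at 24H (VWF). At 48H, 2 of the 24 passed with only the 2 groups compared. The causes of these shifts were not tested, and a fit with a library or group left out also holds fewer samples. No pairing by replicate number was seen, though a weak one is not excluded. Deviations of same-numbered libraries had r from -0.151 to 0.115 over 9 pairs, beside -0.12 to 0.143 over 18 differently numbered pairs. With the replicate number as a block, 2 of the 24 passed at 48H and PLAUR lost its call there (adjusted p = 0.0616). Over all genes, passing counts at 48H against control were 1537 in the fit as reported, 981 with only the 2 groups compared, 948 with the block, 1023 with the GC correction and 23 in the test against 1.4-fold. At 24H, 14 genes passed, 55 with DESeq2, 22 with only the 2 groups compared, 1 with the block and 0 in the test against 1.4-fold. Against 24H, 1110 passed, 731 with the block, 50 in the test against 1.4-fold and 645 without both libraries that stood apart. The low counts of F3 and the spread between its libraries limit what can be said of it. Its 48H change of 0.13 turned to -0.29 without TMAO 48H replicate 1 and was 0.47 without TMAO 48H replicate 3.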
